A study of Mus musculus with 20 samples.

Results

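A set of 174 probe sets was lower in 3 kinds of injured mouse epidermis, in both genotypes of the study. The injured skin was imiquimod-treated, in recovery from imiquimod, or wax-stripped. Members of the set were selected on the measured falls themselves. The set was drawn from 35080 distinct rows of the deposited array table and makes up 0.496% of them. A probe set is a group of array probes summarised as 1 intensity value. A row belonged to the set if its mean log2(intensity + 16) was lower by at least 0.8 in 3 differences, each within Grhl3 WT and within Grhl3 cKO mice. These were injured minus unaffected imiquimod skin (the imiquimod response), injured minus unaffected recovery skin (the recovery response), and wax-stripped minus unaffected recovery skin (the wax response). The 6 differences that chose the members are described below without a test. The members are numbered by the mean of their 6 responses, with member 1 having the largest fall.

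The study compared dorsal epidermis of adult C57B6 mice, taken off with dispase, after a physical injury and after an immune-mediated one. Wax stripping tears off the outer layers of the skin, and imiquimod cream is an immune stimulant that gives psoriasis-like inflammation. Each of the 5 conditions was measured in 2 WT and 2 cKO arrays. These were wax-stripped skin on day 4, and unaffected and injured areas of the imiquimod experiment on day 4. The others were unaffected and injured areas of the recovery experiment on day 8. The labels call the latter recovery from imiquimod treatment, so imiquimod is the treatment in both experiments. The labels write Krt14cre, a Cre recombinase under the keratin 14 promoter of basal keratinocytes, after both genotypes, and cKO means conditional knockout of Grhl3, a transcription factor of epidermal differentiation. The imiquimod day 4 mice are labelled female and all others male, so sex, day and experiment cannot be told apart between these groups. Wax-stripped skin has no unaffected area of its own among the samples used, and is set against unaffected recovery skin, on which the recovery response also rests. Replicates are called biological in the labels, and whether injured and unaffected areas came from the same mice is not given in the sources used here.

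A pair of properties of the table limits what can be said of these rows. The row IDs did not behave as gene names: rows that the probe table labels as ribosomal protein genes, which every cell uses, had a median signal at percentile 54.4 (212 rows), and those labelled as olfactory receptors at percentile 54.5 (979 rows). No gene is named for that reason, the level of Grhl3 could not be read, and the epidermal identity of the samples could not be checked against marker genes. Further, 5 rows parted the arrays labelled female from the wax-stripped and unaffected recovery arrays labelled male, by a gap of over 3 on the log2 scale, and in all 5 the 4 injured recovery arrays, labelled male, lay with the female-labelled ones. None of the 5 is a member, and the part of this mismatch in the recovery response was not tested. Where injured recovery skin was set against unaffected imiquimod skin in place of unaffected recovery skin, 154 rows met the rule, 130 of them among the 174.

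The epidermis is a layered epithelium that is renewed from its basal cells. Keratinocytes that leave the basal layer stop dividing, build up the proteins and lipids of the barrier, and are shed as cornified cells. After a breach of the barrier or during inflammation, keratinocytes are known to divide more and to turn from this resting programme to one of repair. A sheet of epidermis also holds hair follicles, sebaceous glands, pigment cells and resident immune cells. In such bulk samples, fewer cells of a type and less RNA per cell cannot be told apart.

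The rule asked for a fall from the unaffected arrays and so favoured rows that read high there. The members were mostly well-expressed rows of unaffected skin, which is given as a description only. Their mean log2 signal over the 8 unaffected arrays lay at a median percentile of 82.6 among all rows, with a range from 23.8 to 98.4, and 163 of the 174 were above the 50th percentile. The median member read 640 intensity units in WT and 749 in cKO unaffected imiquimod skin, and 866 and 819 in unaffected recovery skin. After injury the median member read 153 in WT and 164 in cKO imiquimod skin, 232 and 266 in recovery skin, and 332 and 279 in wax-stripped skin. The median of all rows stayed between 174 and 199 in these 10 groups. The median member thus lay slightly below an ordinary row in injured imiquimod skin, somewhat above one in injured recovery and wax-stripped skin, and well above one in unaffected skin.

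As a share of the unaffected level, the median member kept 27.5% in WT and 26.1% in cKO skin after imiquimod. In injured recovery skin it kept 28.4% in WT and 31.9% in cKO mice, and after wax stripping 43.3% and 36.3%. On the log2 scale, averaged over the genotypes, the imiquimod response of the members ranged from -5.50 to -0.89 with a median of -1.86. The recovery response ranged from -4.55 to -0.87 with a median of -1.59, and the wax response from -3.82 to -0.84 with a median of -1.26. The median of all rows was 0.01, -0.10 and -0.10 for the same 3 responses. In 94 of the 174 members all 6 responses reached -1, and in 33 the mean of the 6 was -2 or lower.

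**Figure D1:**
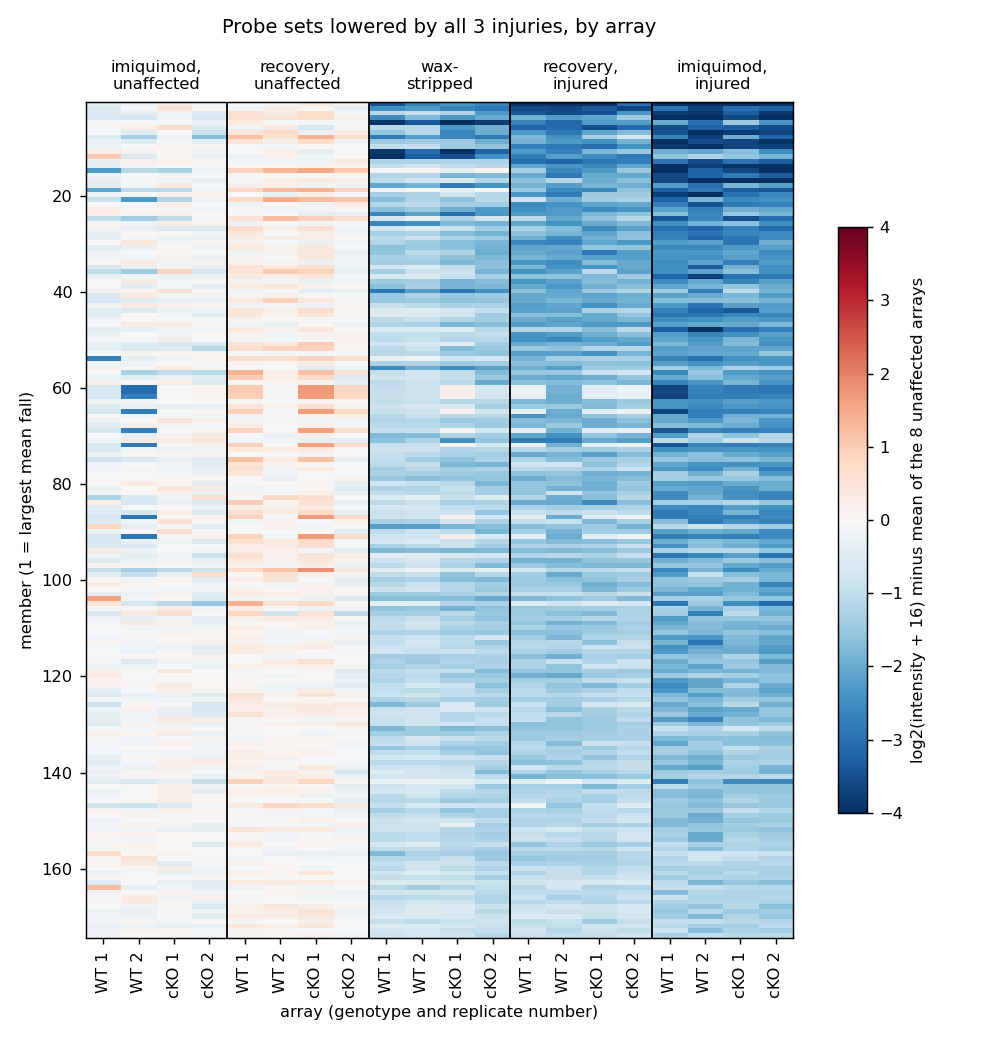
Log2(intensity + 16) of the 174 members (rows, ordered from the largest to the smallest mean fall) in the 20 arrays (columns), minus the mean of the member's 8 unaffected arrays; blue is lower. Injured arrays are blue in nearly every row, imiquimod arrays most deeply, and the dark cells of the second WT unaffected imiquimod array mark a bunch of 8 rows near member 60 and below.

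In 140 of the 174 members all 8 unaffected arrays lay above all 12 injured arrays, and in 34 the arrays overlapped. Over all rows this separation was found in 3.91% (1370 rows). Since the rule asked for low group means, the count of members describes how the arrays lay within the groups and supports nothing further.

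Of the 174 members, 165 passed the filter on mean signal that was set for the model (the 25th percentile of all rows). The other 9 were dim rows, with unaffected group means from 61.5 to 297 and injured group means from 9.79 to 79.4 intensity units. Within the tested members, limma called 154 lower in the WT and 163 in the cKO imiquimod response, against 20% and 18.5% of all rows. It called 155 and 158 lower in the recovery response, against 16.5% and 26.3% of all rows, and 149 and 155 in the wax response, against 11.1% and 11.9%. In 143 members all 6 responses were called. These contrasts chose the members, and nothing is read from the counts.

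Member 1, in row 10561302, had the largest fall. In unaffected imiquimod skin it read 2555 and 2757 in the 2 WT arrays and 3746 and 2819 in the 2 cKO arrays. Unaffected recovery skin was alike, at 3180 and 3342 in WT and 4000 and 3538 in cKO mice. In injured imiquimod skin the row read 36.6 and 24.1 in WT and 81 and 72.2 in cKO mice. Every injured array lay far below every unaffected one, and within each genotype the injured imiquimod arrays lay lowest. In injured recovery skin it read 119 and 38.1 in WT and 164 and 371 in cKO mice, and after wax stripping 270 and 475 in WT and 594 and 497 in cKO mice. Its responses were -5.86, -5.26 and -3.13 in WT and -5.14, -3.84 and -2.76 in cKO mice for imiquimod, recovery and wax.

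Member 2, in row 10531970, fell to a more even level. Unaffected arrays read from 709 to 1567 in the imiquimod and from 806 to 1300 in the recovery experiment. After wax stripping it read 177 and 205 in WT and 150 and 127 in cKO mice. Injured recovery arrays read 72.4 and 71.2 in WT and 90.9 and 66.5 in cKO mice, and injured imiquimod arrays read 121 and 67.6 in WT and 112 and 97.5 in cKO mice. The injured imiquimod and recovery arrays overlapped in this row, and the wax-stripped arrays lay above both. Its deepest response was -3.70, in WT recovery skin, and its weakest -2.47, in WT wax-stripped skin.

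**Figure D2:**
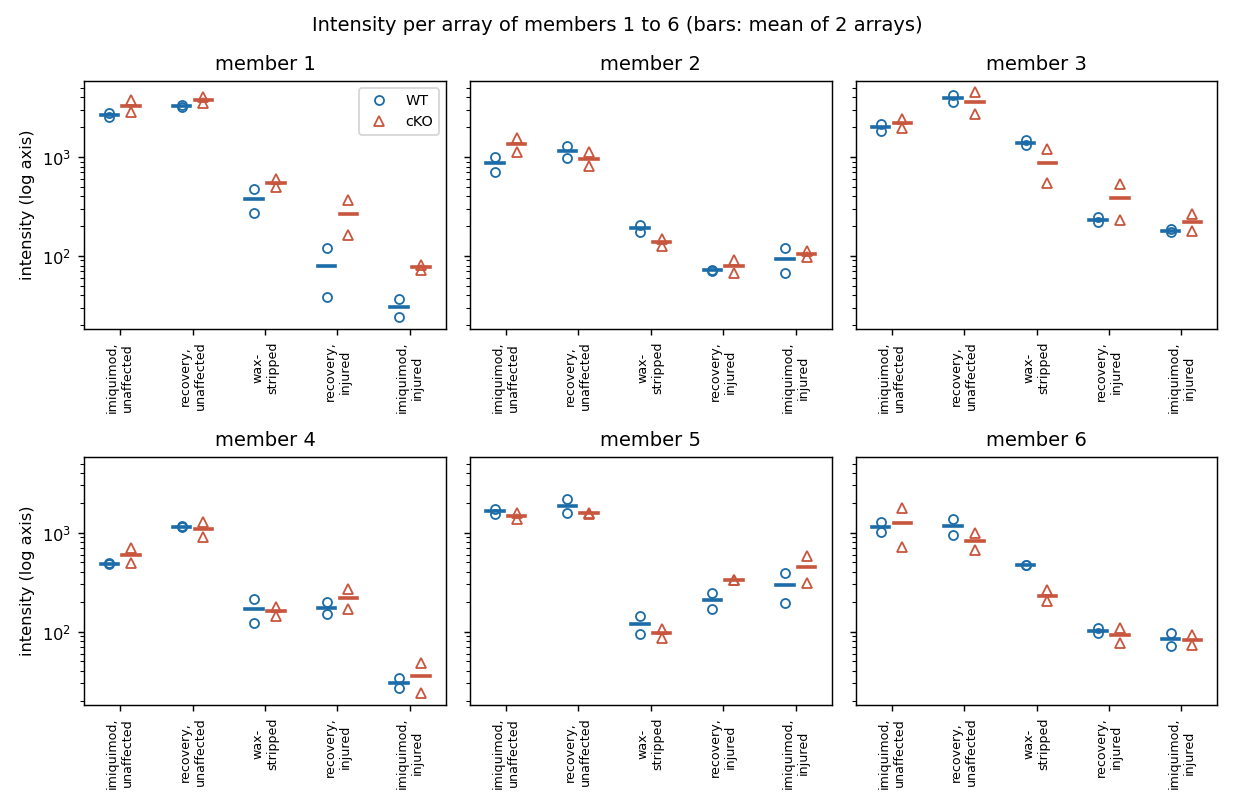
Intensity (log axis) of members 1 to 6 in each of the 20 arrays, by condition; circles are WT and triangles cKO arrays, and bars are means of 2 arrays. All unaffected arrays lie above all injured arrays in these 6 rows; wax-stripped skin lies above the other injured skin in members 2, 3 and 6 and below it in member 5.

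Members 3, 4 and 6 fell more with imiquimod than with wax. Member 3 read from 1845 to 2440 in unaffected imiquimod and from 2703 to 4507 in unaffected recovery arrays. It read from 176 to 265 after imiquimod and from 218 to 537 in injured recovery skin. Wax-stripped skin kept much more, at 1321 and 1473 in WT and 1206 and 549 in cKO mice. Member 4 read from 483 to 706 in unaffected imiquimod and from 895 to 1273 in unaffected recovery skin, and from 23.8 to 47.8 after imiquimod. It stayed higher in the other injured skin, from 123 to 215 after wax stripping and from 151 to 273 in injured recovery skin. Member 6 read from 665 to 1771 in the 8 unaffected arrays, from 72.1 to 96.4 after imiquimod and from 76.3 to 108 in injured recovery skin. After wax stripping it read 474 and 467 in WT and 202 and 262 in cKO mice, so that the genotypes did not overlap there.

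Member 7 was very dim after imiquimod, at 6.64 to 16.3 intensity units against 183 to 345 in unaffected imiquimod skin. It read from 33.3 to 91.2 in injured recovery skin and from 41.8 to 146 after wax stripping. Member 9 read from 38.4 to 74.9 after imiquimod, from 182 to 275 in injured recovery skin and from 262 to 386 after wax stripping, against 727 to 1748 in the unaffected arrays. Member 10 read from 55.7 to 75.4, from 125 to 206 and from 369 to 605 in the same 3 kinds of injured skin, and from 970 to 1271 in the unaffected arrays. In member 10 the 3 kinds of injured skin thus stood apart without overlap. In member 9 imiquimod skin stood apart, while 2 injured recovery arrays lay above the lowest wax-stripped array.

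Members 5 and 8 had their deepest response after wax stripping. Member 5 read 94.8 and 145 in WT and 86.4 and 106 in cKO wax-stripped skin, from 170 to 336 in injured recovery skin and from 193 to 586 after imiquimod. Its unaffected arrays read from 1376 to 2180. Wax-stripped skin was lowest in this row, with no overlap with the other injured arrays. Member 8 read from 127 to 205 after wax stripping, from 179 to 613 in injured recovery skin and from 61.3 to 252 after imiquimod. Its unaffected level differed between the experiments, from 306 to 840 in the imiquimod and from 1487 to 2730 in the recovery experiment, so its imiquimod response, -1.90 against -3.61 with wax, starts from a lower level.

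The wax response was weakest at the edge of the set. The 3 members just inside the threshold had their weakest response in WT wax-stripped skin, at -0.8001, -0.8037 and -0.8046, while their deepest responses were -2.33, -1.40 and -2.46. The 3 rows just outside had weakest responses of -0.799, -0.798 and -0.797, 2 of them in WT wax-stripped skin and 1 in cKO imiquimod skin. The wax response was also the strictest of the 3 criteria. Over all rows, 1628 met the threshold with imiquimod in both genotypes, 799 in recovery skin and 308 after wax stripping. Of the 1628 rows, 597 also met it in recovery skin and 223 also met it after wax stripping; 174 of the 223 met all 3.

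Several members are nearly the same measurement. Of 15051 pairs of members, 34 correlated above 0.99 over the 20 arrays, and joining such pairs left 162 separate signals. There were 5 bunches with 17 members in all, and the largest held 8 (members 60, 61, 62, 65, 69, 72, 87 and 91, r of 0.99 or more). Such rows may measure the same transcript, so the members are not independent. A further 2 members had exact copies in the table, which were removed beforehand.

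The bunch of 8 rested on unlike replicates. In unaffected imiquimod WT skin its rows read from 510 to 638 in replicate 1 but from 94.4 to 129 in replicate 2. The latter is the level of injured WT imiquimod skin, where they read from 54.7 to 111 in replicate 1 and from 110 to 145 in replicate 2. In cKO mice the areas were far apart, from 816 to 1092 in unaffected and from 105 to 140 in injured imiquimod skin. The WT imiquimod response of the bunch ran from -1.5 to -0.98 with both unaffected arrays, from -2.52 to -2.10 with replicate 1 alone and from -0.48 to 0.15 with replicate 2 alone. None of the 8 would be a member on replicate 2 alone. Unaffected recovery skin also varied widely in the bunch, from 738 to 1036 in WT replicate 2 and from 2592 to 3433 in cKO replicate 1.

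How the members moved beyond the group means was not used by the rule. After each group's mean was taken away, the median correlation between pairs of members over the 20 arrays was 0.21. The members thus shared part of their replicate deviations, in arrays that also share their processing, and some members are near copies of each other. Over a regular sample of 2631 tested rows the median was 0.01. That sample was not matched to the members for signal or direction of response, so nothing is read from the gap. Before the group means were taken away the median correlation was 0.85, which the rule largely sets. Replicates differed more in the members than elsewhere: the median SD of 2 arrays was 0.15 on the log2 scale, against 0.09 over the tested rows.

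The rows outside the set that were most like it were picked for its shape, and their weakest response is above -0.8 by the rule. Likeness was the Pearson correlation with the mean standardised profile of the members over the 20 arrays. The members themselves correlated with that profile at 0.668 to 0.995. The 5 most alike rows outside the set correlated at 0.981 to 0.99, and in all 5 the weakest response was in WT wax-stripped skin, at -0.77 to -0.41.

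The next comparison asked whether the fall at day 4 of imiquimod differed in size from that in recovery skin. The 2 responses share no arrays, and the rule bounds both alike. Of the 165 tested members, 39 had a deeper imiquimod response and 8 a deeper recovery response (limma, Benjamini-Hochberg adjusted p under 0.05, genotypes averaged), against 15% and 12.9% of all rows (27.9% in either direction). The total of 47 is a share close to that of all rows. The split between the directions is not, but both responses chose the members. Fewer rows met the threshold in recovery skin than with imiquimod, so nothing is read from the split. The median difference was -0.26 in the members and 0.01 over all rows. The 47 calls became 37 to 56 with single arrays left out, and 44 when each bunch was counted once.

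Member 17 had the largest difference towards imiquimod. In unaffected arrays it read from 1894 to 2287 in the imiquimod and from 2366 to 3170 in the recovery experiment. Injured imiquimod arrays read 185 and 78.9 in WT and 125 and 106 in cKO mice, while injured recovery arrays read 762 and 1106 in WT and 614 and 743 in cKO mice. The injured groups did not overlap, and the difference between the responses was -2.13 ± 0.30 (SE; limma adjusted p = 0.000447). Members 14 and 48 differed in the same way, by -1.48 ± 0.16 and -1.42 ± 0.24 (SE; limma adjusted p = 0.000108 and 0.00132). Member 14 read from 54.7 to 83.7 after imiquimod and from 212 to 306 in injured recovery skin. Member 48 read from 108 to 278 and from 575 to 886.

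The largest differences the other way were in members 84, 51 and 42, at 1.37 ± 0.38, 1.06 ± 0.30 and 1.05 ± 0.18 (SE; limma adjusted p = 0.0177, 0.02 and 0.00123). Member 42 read from 91.5 to 108 after imiquimod and from 80.6 to 94.4 in injured recovery skin, which is nearly the same level. Its unaffected arrays read from 240 to 301 in the imiquimod and from 351 to 742 in the recovery experiment. The deeper recovery response of member 42 thus lay mainly in the unaffected level. In member 84 unaffected arrays of the experiments overlapped and injured arrays did not: unaffected arrays read from 225 to 466 and from 282 to 764, and injured arrays from 125 to 162 after imiquimod and from 51.1 to 108 in recovery skin. Member 51 read from 211 to 255 and from 378 to 701 in unaffected skin and from 50.8 to 92.1 and from 60.2 to 81.7 in injured skin. Its call was lost without injured imiquimod cKO replicate 1, where the difference was 0.89 (limma adjusted p = 0.0505).

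**Figure D3:**
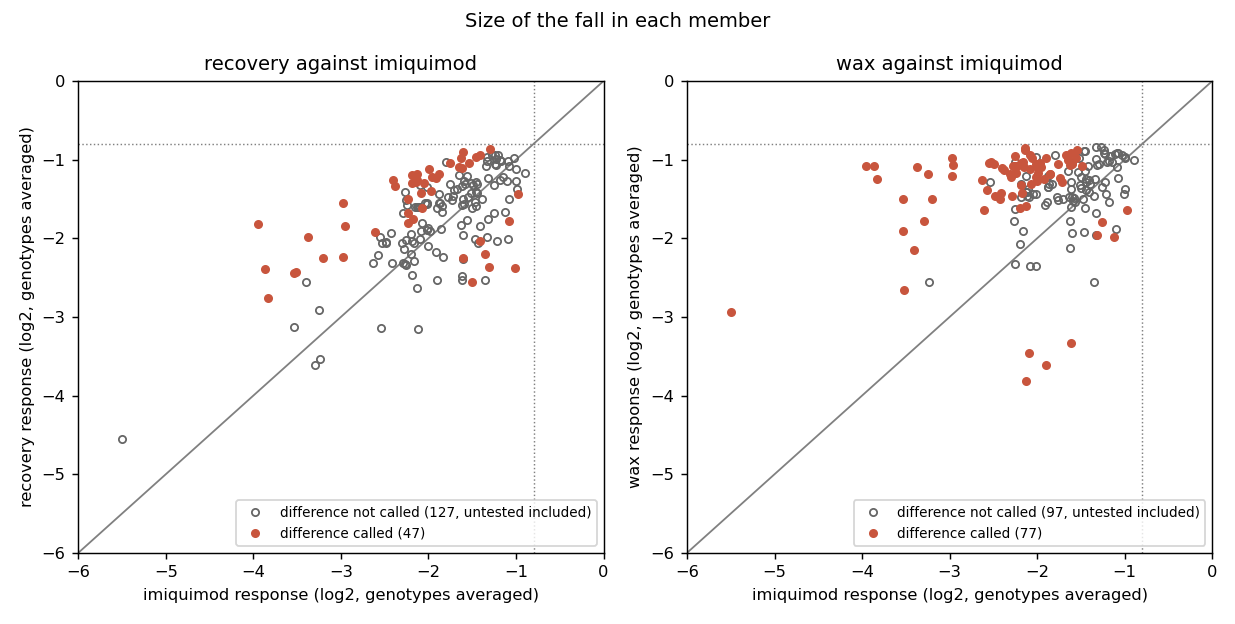
Recovery response (left) and wax response (right) against the imiquimod response of the 174 members, in log2 units averaged over the genotypes; the diagonal marks equal responses, dotted lines the threshold of -0.8, and filled points a called difference. Most points lie above the diagonal, 47 are called on the left and 77 on the right, and members 5, 8, 11 and 12, with wax responses from -3.82 to -3.34, lie well below it on the right.

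The reference level itself differed between the experiments. In unaffected skin 61 of the 165 tested members were lower and 3 higher in the imiquimod than in the recovery experiment (limma, genotypes averaged), against 16.9% lower and 13.8% higher over all rows (30.7% in either direction). The median difference was -0.17 in the members and -0.04 over all rows. The rule took unaffected recovery skin as the reference of 2 of its 3 responses and so favoured rows that read high there. These counts and differences are therefore a description, and nothing is read from their direction. Labelled sex, day and experiment also differ together here, and their parts cannot be told apart. The count of 64 became 39 without unaffected recovery WT replicate 1, 39 without unaffected recovery cKO replicate 1 and 56 when each bunch was counted once. With other single arrays left out it ran from 50 to 67.

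Members 15, 21 and 19 had the largest such differences, at -2.42 ± 0.34, -2.30 ± 0.36 and -2.20 ± 0.30 (SE). Member 15 read 284 and 634 in WT and 574 and 1199 in cKO unaffected imiquimod skin, against 2669 and 3544 in WT and 4079 and 2935 in cKO unaffected recovery skin. The 2 sets of unaffected arrays did not overlap. Wax-stripped skin, at 1080 to 1525, had a higher level than 3 of the 4 unaffected imiquimod arrays, although it counted as lowered against unaffected recovery skin. Member 19, which correlated with member 15 at 0.993, read from 286 to 1141 in unaffected imiquimod, from 2266 to 3344 in unaffected recovery and from 990 to 1319 in wax-stripped arrays. Member 21 read from 187 to 827 in unaffected imiquimod and from 1710 to 2772 in unaffected recovery skin, with 292 to 444 after wax stripping.

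The 3 members with the higher unaffected level in the imiquimod experiment differed little, by 0.52 ± 0.17 in member 71, 0.47 ± 0.14 in member 157 and 0.36 ± 0.12 in member 47 (SE). In member 71 unaffected arrays read from 2884 to 4290 in the imiquimod and from 2394 to 2906 in the recovery experiment, which overlap. Each of these calls was lost in some fits with an array left out. The difference was 0.40 in member 71 and 0.25 in member 47 without unaffected imiquimod WT replicate 2, and 0.31 in member 157 without unaffected imiquimod WT replicate 1.

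The wax response was then compared with the imiquimod response in these rows. The responses share no arrays, while labelled sex and day of the reference differ. The rule bounded both responses alike, but both chose the members, and wax was the strictest criterion. Rows near the wax threshold could have a much deeper imiquimod response, so nothing is read from the direction of the counts. Of the 165 tested members, 69 had the deeper imiquimod and 8 the deeper wax response (limma, genotypes averaged), against 14.4% and 12.6% of all rows (26.9% in either direction). The median of wax minus imiquimod was 0.55 in the members and -0.05 over all rows. The 77 calls became 75 without the injured recovery arrays, 69 to 84 with single arrays left out and 74 when each bunch was counted once.

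Members 17, 14 and 10 kept far more signal after wax than after imiquimod, with differences of 2.87 ± 0.30, 2.79 ± 0.16 and 2.58 ± 0.17 (SE; limma adjusted p = 2.63e-05, 6.51e-07 and 8.66e-07). Member 17 read 1192 and 1461 in WT and 1662 and 1071 in cKO wax-stripped skin. Member 14 read 685 and 771 in WT and 673 and 613 in cKO wax-stripped skin, against 1390 to 1525 in unaffected recovery and 1100 to 1372 in unaffected imiquimod skin. In these 3 rows wax-stripped and injured imiquimod arrays were separated by a wide gap.

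Members 12, 8 and 5 had the deeper wax response, by -1.72 ± 0.47, -1.71 ± 0.53 and -1.69 ± 0.32 (SE; limma adjusted p = 0.0169, 0.0301 and 0.00191). Member 12 read 26.4 and 70.2 in WT and 57.2 and 141 in cKO wax-stripped skin, against 215 to 346 after imiquimod. Its unaffected arrays read from 552 to 1674 in the imiquimod and from 678 to 946 in the recovery experiment. The call of member 8 was lost in 8 of the fits with an array left out (limma adjusted p from 0.0578 to 0.0741). These left out wax-stripped WT replicate 1 or cKO replicate 2, unaffected imiquimod WT or cKO replicate 2, injured imiquimod WT or cKO replicate 1, or unaffected recovery WT or cKO replicate 1. By their values, 19 of the 174 members fell most after wax stripping, 42 in recovery skin and 113 with imiquimod, and 4 of the 19 were among members 1 to 12. In 89 members the order was imiquimod, recovery, wax, from the deepest fall to the weakest. The 19 had median responses of -1.98 with wax, -1.59 in recovery skin and -1.35 with imiquimod. These orders rank the responses that chose the members, with wax the strictest criterion, and nothing is read from them.

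Wax-stripped and injured recovery skin were compared directly, since their responses have the unaffected recovery arrays in common. Wax-stripped skin was higher in 66 and lower in 8 of the 165 tested members (limma, genotypes averaged), against 10.4% and 14% of all rows (24.5% in either direction). The median difference was 0.23 in the members and -0.01 over all rows. The 74 calls became 54 to 74 with single arrays left out and 71 when each bunch was counted once. The rule used both groups, with wax the strictest criterion, so nothing is read from the direction of these counts. Both groups are labelled male, but the 5 rows described above set them apart, and wax-stripped skin was taken on day 4 and recovery skin on day 8.

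The largest differences were in members 19, 15 and 3, at 1.95 ± 0.30, 1.85 ± 0.34 and 1.84 ± 0.27 (SE; limma adjusted p = 0.000598, 0.00179 and 0.000392). Member 19 read from 195 to 438 in injured recovery skin and member 15 from 220 to 544, both below all wax-stripped arrays. The largest in the other direction were in members 11, 5 and 40, at -1.45 ± 0.22, -1.19 ± 0.22 and -1.01 ± 0.27 (SE; limma adjusted p = 0.000501, 0.00228 and 0.0152). Member 11 read 62.6 and 121 in WT and 55.3 and 107 in cKO wax-stripped skin, from 159 to 376 in injured recovery skin and from 193 to 341 after imiquimod, against 815 to 1359 in the unaffected arrays. Member 40 read from 32.2 to 64.5 after wax stripping and from 71.6 to 145 in injured recovery skin. Its call was lost without wax-stripped WT replicate 1 (-0.84, limma adjusted p = 0.0711), wax-stripped cKO replicate 1 (-0.88, limma adjusted p = 0.056) and injured recovery WT replicate 1 (-0.91, limma adjusted p = 0.0611).

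The responses of the 2 genotypes were set side by side in the same rows. The rule asked for a fall of at least 0.8 in WT and in cKO mice, so rows whose fall was present in 1 genotype only could not be members. The counts that follow describe the members and do not bear on whether such a fall depends on Grhl3. Responses in cKO mice were tested against those in WT mice, which called 0 of the 165 tested members for imiquimod, 0 for recovery and 0 for wax (limma), against 0.0038%, 0.137% and 0.0494% of all rows. At an unadjusted p under 0.05 there were 7, 22 and 6 members, or 4.24%, 13.3% and 3.64% of the 165, against 4.19%, 8.84% and 2.48% of all rows. The median difference of cKO minus WT was 0.06 for imiquimod, 0.19 for recovery and -0.17 for wax, against 0.02, 0.01 and 0.00 over all rows. The fall after wax was deeper in cKO than in WT mice in 124 of the 165, or 75.2%. Over all rows this difference was below 0 in 48.7%. The fall in recovery skin was shallower in cKO mice in 126. The recovery difference was below 0 in 23.6% of the members, against 47.7% of all rows. The members are correlated, so these counts are not of independent rows. Neither shift was accompanied by a call for a single member. With single arrays left out the median of the wax difference ran from -0.30 to 0.01, that of the recovery difference from 0.07 to 0.33 and that of the imiquimod difference from -0.02 to 0.19. The count for imiquimod was 1 without unaffected imiquimod WT replicate 2.

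**Figure D4:**
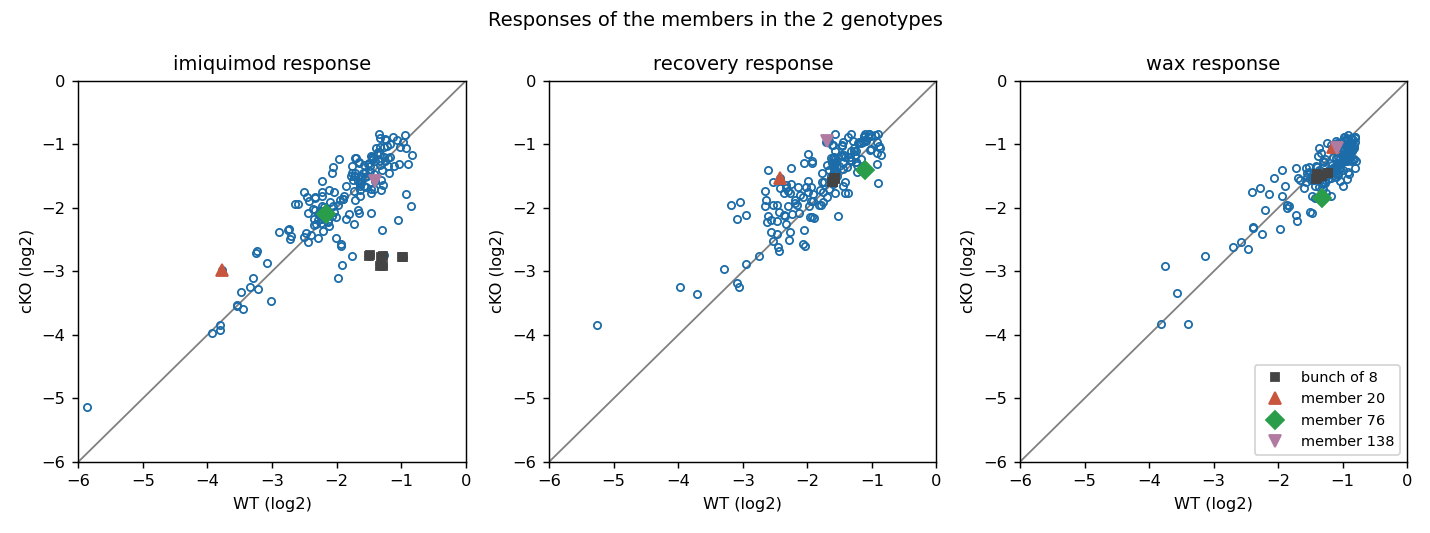
Imiquimod, recovery and wax responses of the 174 members in cKO (vertical) against WT mice (horizontal), in log2 units; the diagonal marks equal responses. The bunch of 8 lies below the diagonal for imiquimod, at -1.5 to -0.98 in WT and -2.91 to -2.74 in cKO mice. Members 20, 76 and 138 are those with a genotype difference in level by limma, within a condition or averaged over conditions. With all 20 arrays, no member was called for a genotype difference in a response.

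Within single conditions the genotypes differed in few members. In wax-stripped skin limma called 1 of 165 lower in cKO and 0 higher, against 0.076% and 0.194% of all rows (0.27% in either direction). Below 0 were 136 of 165 members (82.4%), against 48% of all rows. The median difference was -0.24 in the members and 0.01 over all rows. This median ran from -0.30 to -0.16 with single arrays left out. The other conditions were also uneven. In unaffected recovery skin 67.9% of the members were below 0, against 49.2% of all rows. The share was 39.4% in unaffected imiquimod, 33.9% in injured imiquimod and 31.5% in injured recovery skin. Over all rows these 3 shares were 51.8%, 45.8% and 47.2%. In unaffected recovery skin 0 members were called against 0% of all rows, and in unaffected imiquimod skin 0 against 0.0076% of all rows (limma). At an unadjusted p under 0.05 there were 5 and 20 members, or 3.03% and 12.1% of the 165, against 3.04% and 9.71% of all rows. In unaffected imiquimod skin the count was 2 without WT replicate 2. In injured imiquimod skin 1 member was higher and 0 lower in cKO, against 0.076% and 0.0608% of all rows (0.137% in either direction). For injured recovery skin the counts were 2 higher and 0 lower, against 0.722% and 0.277% of all rows (1% in either direction). The latter count was 0 without injured recovery WT replicate 2 or cKO replicate 1, 1 without cKO replicate 2 or either wax-stripped WT array, and 3 without any 1 injured imiquimod array. The members called in those fits were not always the 2 called with all 20 arrays. Averaged over the 5 conditions, 2 members were higher and 1 lower in cKO mice, against 0.908% and 0.578% of all rows (1.49% in either direction). That total of 3 became 11 without unaffected imiquimod WT replicate 1 and 5 without unaffected imiquimod WT replicate 2.

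Member 20 was the one higher in injured cKO imiquimod skin. It read 113 and 86.1 in WT and 203 and 269 in cKO injured imiquimod skin, and 328 and 230 in WT and 621 and 624 in cKO injured recovery skin. In both kinds of injured skin the cKO arrays lay above the WT arrays. Unaffected imiquimod skin read 1430 and 1667 in WT and 1948 and 1963 in cKO mice, unaffected recovery skin 1737 and 1383 in WT and 2081 and 1602 in cKO mice, and wax-stripped skin 686 and 697 in WT and 1004 and 772 in cKO mice. The mean difference over the 5 conditions was 0.63 ± 0.09 (SE; limma adjusted p = 0.0024), and it was called in all 27 alternative fits. The difference in injured imiquimod skin, 1.12 ± 0.19 (SE; limma adjusted p = 0.0439), was called in 10 of 29 alternatives, with adjusted p from 0.0289 to 0.50, and was lost in 15 of 20 fits with an array left out. That in injured recovery skin, 1.13 ± 0.19 (SE; limma adjusted p = 0.0128), was lost without injured recovery WT replicate 2 (adjusted p = 0.206), cKO replicate 1 (adjusted p = 0.130) and cKO replicate 2 (adjusted p = 0.079), and with only the 4 arrays compared (adjusted p = 0.120).

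Member 76 was lower in cKO mice. After wax stripping it read 118 and 130 in WT and 63.5 and 60.7 in cKO mice, a difference of -0.84 ± 0.15 (SE; limma adjusted p = 0.0306). The call was lost without any 1 of the 4 wax-stripped arrays, with adjusted p from 0.142 to 0.350. Without either injured imiquimod cKO array its adjusted p was 0.0509, and with only the 4 arrays compared it was 0.0553. It read 145 and 149 in WT and 74 and 109 in cKO injured recovery skin, and 372 and 300 in WT and 273 and 257 in cKO unaffected recovery skin. The imiquimod arrays were closer, at 241 and 261 in WT and 235 and 190 in cKO unaffected skin and 49.1 and 38.3 in WT and 35.9 and 38.9 in cKO injured skin. Averaged over conditions the difference was -0.43 ± 0.07 (SE; limma adjusted p = 0.00496), called in all 26 alternatives where the row was tested.

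Member 138 was higher in cKO mice, by 0.28 ± 0.06 averaged over conditions (SE; limma adjusted p = 0.0281) and by 0.62 ± 0.13 in injured recovery skin (SE; limma adjusted p = 0.0358). Injured recovery skin read 119 and 125 in WT and 179 and 213 in cKO mice, and unaffected imiquimod skin 305 and 387 in WT and 506 and 540 in cKO mice. Injured imiquimod skin read 137 and 106 in WT and 163 and 167 in cKO mice. After wax stripping the order was the other way, at 196 and 191 in WT and 183 and 178 in cKO mice. In unaffected recovery skin the cKO mean was also the lower, at 461 and 403 in WT and 403 and 384 in cKO mice. The averaged difference was called in 15 of 27 alternatives, with adjusted p from 0.0119 to 0.0675. The difference in injured recovery skin was called in 18 of 28, and was lost without any 1 of the 4 injured recovery arrays, with adjusted p from 0.0912 to 0.215.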

How the data were processed

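Gene ST arrays of Affymetrix measured epidermal RNA, which the labels' protocols describe as labelled through biotinylated cRNA. Each deposited value is 1 probe set's linear intensity. The authors used PLIER and Expression Console, per the submitters' processing notes, whose versions and scaling the sources used here do not give. Of 35556 rows, 476 copies with identical values were removed. Groups came from the titles. The members and lists were chosen with earlier results of these data known. Values were taken as log2(intensity + 16), which understates the change of dim rows, and 26310 rows at or above the 25th percentile of mean log2 signal were tested.

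Contrasts were fitted with limma 3.58.1 in R 4.3.3 (group means of all 20 arrays, 10 residual degrees of freedom, Benjamini-Hochberg adjustment over all tested rows, threshold 0.05), and tested on simulated data. There were 13 tested contrasts. Median intensity per array ran from 171 to 202, and precision is limited by the 2 arrays of each group, printed singly or as ranges. Where sources do not say that replicates were separate mice, p-values measure only the spread between arrays. Rows described singly were members 1 to 10, the 3 on each side of the threshold, the 5 most alike, and up to 3 called members per contrast and direction with the largest difference; member 60's bunch was added after its values were seen. Alternatives changed the pseudocount, scaling, filter, variance model, arrays and replicate block. The cell type markers and gene names planned were not used, since the IDs failed the check.

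Whether replicate numbers pair the samples was not settled. Over 45 pairs of groups, same-numbered arrays deviated together with r from -0.26 to 0.29, and 11 pairs exceeded 0.1. Many of these pairs join different genotypes or experiments, which cannot tell whether areas of the same mouse were paired. Injured and unaffected areas of the same genotype and experiment were not looked at apart.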

Additional observations from a re-analysis of the deposited data

Results flagged for a closer look

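Differences between responses were called by limma in 3 comparisons, and none of their causes was tested. The rule chose the members on the same responses, so nothing is read from the direction of the counts. The imiquimod and recovery responses differed in 47 of the 165 tested members, a share close to the 27.9% of all rows. The largest differences were -2.13 in member 17, -1.48 in member 14 and -1.42 in member 48, and 1.37, 1.06 and 1.05 in members 84, 51 and 42. The wax and imiquimod responses differed in 77 members (26.9% of all rows), with 2.87, 2.79 and 2.58 in members 17, 14 and 10 and with -1.72, -1.71 and -1.69 in members 12, 8 and 5. Wax-stripped and injured recovery skin differed in 74 members (24.5% of all rows), with 1.95, 1.85 and 1.84 in members 19, 15 and 3 and with -1.45, -1.19 and -1.01 in members 11, 5 and 40. Day differs between groups in all 3 comparisons, and labelled sex in the first 2.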

How the results depend on the processing

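The size of the set depends on its threshold: 389 rows met it at -0.6 and 94 at -1. Pseudocounts of 64 and 1 gave 131 and 206 rows, quantile normalization 191, and the imiquimod and wax criteria without the recovery criterion 223. There were 162 signals with bunches counted once, and 153 to 192 rows with single arrays left out. The counts of members whose 2 responses differ, and of members whose unaffected level differs, stayed within 1.5 times under the alternatives that kept all arrays or left out the injured recovery arrays; with single arrays left out they ran from 37 to 56, 69 to 84, 54 to 74 and 39 to 67. All 6 responses were called in 110 to 147 members with single arrays left out. Genotype counts rest on few calls. The 1 in wax-stripped skin became 0 when rows under the 50th percentile were dropped or only the arrays compared were used, and 0 to 1 with single arrays left out. The 1 in injured imiquimod skin became 0 with a pseudocount of 64, no filter, only the arrays compared and without the injured recovery arrays, and 0 to 2 with single arrays left out. The 2 in injured recovery skin became 1 with no filter and with only the arrays compared, and 0 to 3 with single arrays left out. The other genotype counts ran from 2 to 11 (mean), 0 to 2 (unaffected imiquimod) and 0 to 1 (imiquimod response). A group with 1 array left is assumed to vary like the others. With the replicate block the 4 counts between responses and unaffected skins were 50, 76, 72 and 64, and no count moved by over 1.5 times. No described difference reversed, while 790 alternative fits of such a difference kept the call and 83 lost it. Dim rows and 2 arrays per group limit what could be called.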
